A study of Mus musculus with 4 samples.

Results

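The set comprised 10 mouse genes for the uptake, activation and breakdown of azacytidine and related nucleosides, which were Slc29a1, Slc29a2, Uck1, Uck2, Uckl1, Dck, Cda, Rrm1, Rrm2 and Samhd1. They were chosen by name and not by their levels, though with earlier results of these data known. All 10 were found among the 21878 genes of the mRNA values, with 40 of the 75959 RefSeq transcripts, and the transcripts of each gene were summed. The RNA came from C3H10T1/2, a mouse mesenchymal stem cell line, in 2 untreated samples (replicates 1 and 2) and in 2 samples given 5-AZA (5-azacytidine) at 20 μM (replicates 101 and 102). The treated cells are listed with 72 hours of exposure and then 21 days in fresh medium, and the labels give no time in culture for the untreated ones. The values are therefore levels long after the drug had been removed, not levels during its uptake, and the effect of time in culture cannot be told apart from that of 5-AZA. All samples came from the same cell line, and the paper calls the replicates biological repeats without naming separate cultures, so p-values measure only the spread between these samples. In such bulk RNA, a change in the cells present cannot be told apart from a change in RNA per cell.

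5-AZA is a cytidine analogue that cells take up through nucleoside transporters. Uridine-cytidine kinases add the first phosphate, and further kinases carry it to the triphosphate that enters RNA. Ribonucleotide reductase turns part of the diphosphate into the deoxy form, which leads to the drug in DNA, where it traps DNA methyltransferases and lowers methylation of CG positions in later cell divisions. Cytidine deaminase inactivates the drug, deoxycytidine kinase activates the related deoxynucleosides, and Samhd1 breaks down deoxynucleotide triphosphates.

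Values are FPKM (fragments per kilobase of transcript, relative to all sequenced fragments), so levels can be compared between genes. Genes whose mean across the 4 samples reached 0.1 FPKM were fitted with limma on log2(FPKM + 0.1), a scale that understates changes of low genes, and p-values were adjusted by Benjamini and Hochberg's approach over the 13199 genes tested. A gene rose or fell where its adjusted p-value was below 0.05. All 10 genes were tested. Uck1 and Samhd1 rose to just under 2-fold after 5-AZA, Slc29a1 fell to 0.753 times its untreated level, and the other 7 did not pass. This makes 3 of 10, against 24.5% of all genes tested, so the share of the set was near the background. By direction it was 2 of 10 higher, against 18.6%, and 1 of 10 lower, against 5.93%. With a further limit of more than 2-fold, 0 of the 10 passed in limma, against 14.4% of all genes, and 3 had an unadjusted p-value below 0.05, against 35.5%. The median log2 fold change of the 10 genes was 0.089, beside 0.047 for all genes tested, and the median size without its sign was 0.14, beside 0.26.

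Because 5-AZA acts on methylation of CG positions, the RefSeq sequences before the start sites (build GRCm38.p6) of the 3 genes that passed are shown with CG in capitals. Each runs 5′ to 3′ on the strand of the gene over the 250 bases before the start site. For Slc29a1, which has 8 listed windows, and Uck1, which has 2 that overlap, the most upstream one was taken. The region of Uck1 is chr2:32260106-32260355, that of Samhd1 chr2:157135097-157135346 and that of Slc29a1 chr17:45599619-45599868, all on the minus strand.
Uck1: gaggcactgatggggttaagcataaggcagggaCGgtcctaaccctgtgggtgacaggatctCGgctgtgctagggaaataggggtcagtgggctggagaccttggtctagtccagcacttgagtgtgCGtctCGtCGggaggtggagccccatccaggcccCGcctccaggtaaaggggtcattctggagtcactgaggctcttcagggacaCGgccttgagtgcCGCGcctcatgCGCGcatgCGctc
Samhd1: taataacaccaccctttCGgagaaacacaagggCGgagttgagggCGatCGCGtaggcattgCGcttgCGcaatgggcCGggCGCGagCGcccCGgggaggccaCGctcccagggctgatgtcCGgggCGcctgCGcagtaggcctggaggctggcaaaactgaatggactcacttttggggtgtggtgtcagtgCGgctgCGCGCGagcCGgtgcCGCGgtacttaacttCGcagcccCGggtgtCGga
Slc29a1: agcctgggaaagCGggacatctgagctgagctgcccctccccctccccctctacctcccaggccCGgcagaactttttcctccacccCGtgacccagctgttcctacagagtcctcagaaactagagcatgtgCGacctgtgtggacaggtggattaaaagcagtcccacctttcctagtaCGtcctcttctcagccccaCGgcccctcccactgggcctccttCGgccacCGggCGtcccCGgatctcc
The printed stretch held 12 CG in Uck1, 26 in Samhd1 and 10 in Slc29a1. DNA methylation was not measured in these samples, so the sequences carry no methylation level.

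With the 50 bases after each start site added, RefSeq windows were found for all 10 genes, 19 in number, and each was compared with 32851 mouse promoter windows of the same length, whose median was 7 CG. The window of Samhd1 held 29 CG, more than 87.1% of all windows. That of Uck1 held 18, more than 70.3%. The highest count among the 10 genes was 40 in Rrm2, which did not pass the test, and counts were not tested against the changes. Over the 8 windows of Slc29a1 the count ranged from 3 to 30. E2F-type motifs (TTTCGCGC, TTTGGCGC and TTTCCCGC, searched on both strands) were in none of the 19 windows, and were in 0.323%, 0.514% and 1.07% of all windows. The core of the interferon-stimulated response element was also in none, against 3.44%. CCAAT was in 4 of the 19 windows, each of a different gene, against 37.4% of all, and 8 of the 19 windows belong to Slc29a1. Copies started 50 bases before the start of Rrm2, 91 and 45 before that of Rrm1 and 33 before that of 1 Slc29a1 window. Another copy lay just after the start of Uck2, on the opposite strand. A missing match says only that these letters are not in these windows.

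Among the samples, Slc29a1 was by far the most abundant gene of the set, and Slc29a2 was the lowest. In the untreated samples the mean levels ran from Slc29a1 (126 FPKM) through Rrm1 (20.0), Rrm2 (15.2), Uck2 (10.8), Uckl1 (10.2), Uck1 (7.17), Samhd1 (5.63), Dck (4.83) and Cda (3.60) to Slc29a2 (0.161). The 2 samples of neighbours in this order overlapped for Uck2 with Uckl1 and for Samhd1 with Dck. After 5-AZA, Uck1 had moved above Uck2 with 13.5 FPKM, and Samhd1 had moved to 11.0 FPKM, above Uckl1 with 9.47, and the ranges of Uck1 and Uck2, of Uck2 and Samhd1, and of Dck and Cda overlapped.

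**Figure D1:**
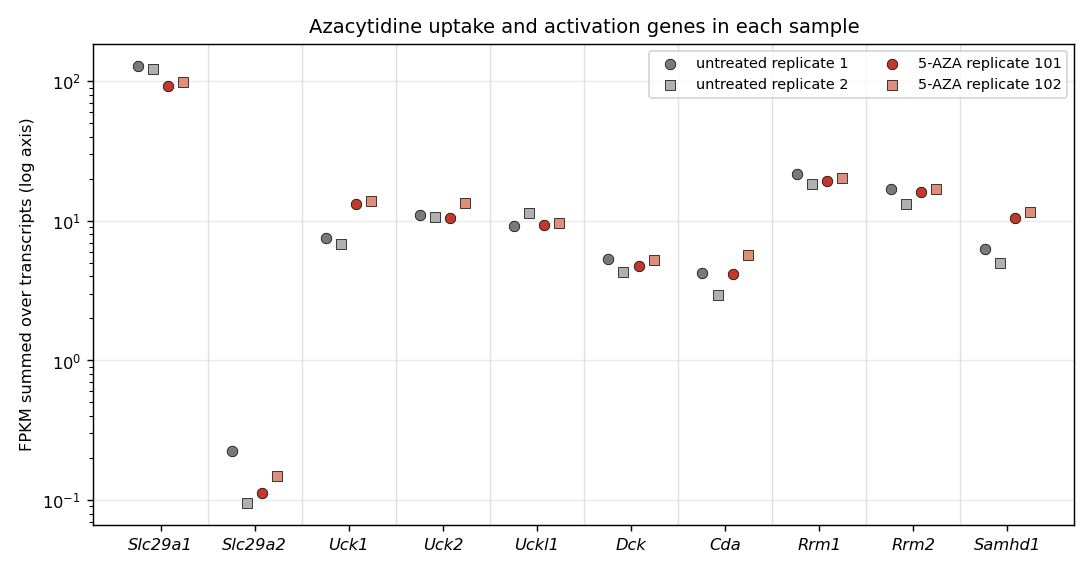
FPKM summed over the transcripts of each gene (log axis), with 1 point for each of the 2 untreated (grey) and 2 5-AZA (red) samples. The groups do not overlap for Slc29a1, Uck1 and Samhd1, and Slc29a1 lies far above Slc29a2 in every sample.

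Slc29a1 encodes the main equilibrative nucleoside transporter of the plasma membrane, which carries purine and pyrimidine nucleosides down their gradient. It was at 129 and 123 FPKM in untreated replicates 1 and 2 and at 92.1 and 98.1 FPKM in 5-AZA replicates 101 and 102. Both treated samples were below both untreated samples. Its mean fell from 126 ± 4.02 to 95.1 ± 4.24 FPKM (SD, n = 2). Its log2 fold change was -0.41 (95% interval -0.62 to -0.19, adjusted p = 0.0132, limma). This call was lost without any 1 of the 4 samples, with adjusted p-values from 0.0784 to 0.148 and log2 fold changes from -0.45 to -0.36. Of the genes tested, 96.8% had a lower untreated mean than Slc29a1.

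Slc29a2, a second equilibrative transporter, was near the limit on low values. It was at 0.226 and 0.0952 FPKM in the untreated samples and at 0.112 and 0.148 FPKM after 5-AZA, and the groups overlapped. The log2 fold change was -0.14 with a 95% interval from -1.09 to 0.81 (adjusted p = 0.856, limma), so a change of 2-fold in the lower direction lay within the interval. Slc29a1 was 571 to 1297 times as high as Slc29a2 per length, and this ratio overlapped between the groups.

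Uck1, which phosphorylates uridine, cytidine and 5-azacytidine, showed the smallest p-value of the set. It was at 7.55 and 6.79 FPKM in the untreated samples and at 13.1 and 14.0 FPKM after 5-AZA, with no overlap. The mean rose from 7.17 ± 0.536 to 13.5 ± 0.594 FPKM (SD, n = 2), 1.89 times the untreated level, with a log2 fold change of 0.91 (95% interval 0.61 to 1.21, adjusted p = 0.00109, limma). Without 5-AZA replicate 101 or 102 the change was 0.95 or 0.86. The call was lost in both of these fits, which keep a lone treated sample and also call fewer of all genes.

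Uck2, the second kinase with the same reaction, was at 11.0 and 10.6 FPKM in the untreated samples and at 10.5 and 13.3 FPKM after 5-AZA. The groups overlapped, and the log2 fold change was 0.13 (95% interval -0.20 to 0.46, adjusted p = 0.572, limma). Uckl1, a kinase-like relative, was at 9.17 and 11.3 FPKM and at 9.27 and 9.66 FPKM, again overlapping, with a log2 fold change of -0.10 (95% interval -0.43 to 0.22, adjusted p = 0.661, limma).

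The share of Uck1 among the kinases was compared next. Uck1 made up 40.7% and 39.0% of the summed Uck1 and Uck2 FPKM in the untreated samples and 55.5% and 51.1% after 5-AZA. The treated shares were both higher, by 13.5 percentage points on average. An exact two-sided permutation test gave p = 0.333, the smallest it can give with 2 samples against 2. The sum of the 3 genes was 27.7 and 28.7 FPKM in the untreated samples and 32.9 and 36.9 FPKM after 5-AZA.

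**Figure D2:**
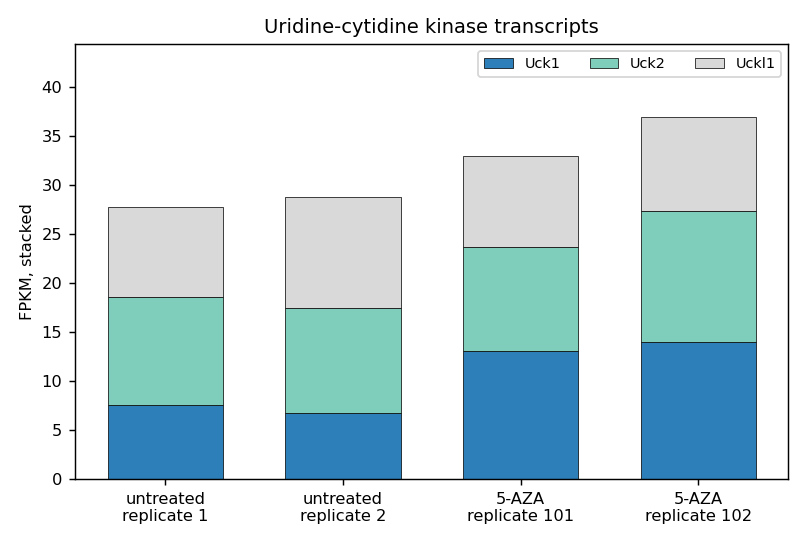
FPKM of Uck1, Uck2 and Uckl1 stacked for each of the 4 samples, with no error bar since each bar is 1 sample. The Uck1 segment is 13.1 and 14.0 FPKM in the 5-AZA samples, against 7.55 and 6.79 FPKM in the untreated samples.

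Dck, deoxycytidine kinase, activates deoxycytidine and drugs such as decitabine. It was at 5.34 and 4.33 FPKM in the untreated samples and at 4.73 and 5.23 FPKM after 5-AZA, and the treated values lay within the untreated range. The log2 fold change was 0.048 (95% interval -0.35 to 0.44, adjusted p = 0.879, limma).

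Cda, cytidine deaminase, was at 4.26 and 2.94 FPKM in the untreated samples and at 4.16 and 5.68 FPKM after 5-AZA. Untreated replicate 1 and 5-AZA replicate 101 were nearly level, so the groups overlapped. The log2 fold change was 0.45 (95% interval -0.08 to 0.98, adjusted p = 0.208, limma). With each sample left out in turn it ran from 0.19 to 0.71, with adjusted p-values from 0.0606 to 0.718. Dck made up 55.6% and 59.6% of the summed Dck and Cda FPKM in the untreated samples and 53.2% and 47.9% after 5-AZA, a difference of -7.05 percentage points, 5-AZA minus untreated (exact two-sided permutation p = 0.333, the smallest possible).

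Rrm1 encodes the large subunit of ribonucleotide reductase, which makes deoxynucleotides from ribonucleotides. It was at 21.7 and 18.3 FPKM in the untreated samples and at 19.3 and 20.2 FPKM after 5-AZA, with a log2 fold change of -0.018 (95% interval -0.29 to 0.26, adjusted p = 0.940, limma). Rrm2, the small subunit that is made mostly in dividing cells, was at 17.0 and 13.3 FPKM and at 16.2 and 17.0 FPKM, with a log2 fold change of 0.14 (95% interval -0.18 to 0.46, adjusted p = 0.530, limma). Both genes overlapped between the groups. The 10 proliferation markers held 1 gene that passed, Ccna2, which was lower, against 5.93% of all genes tested that passed lower. Groups overlapped for Top2a, Ccnb1 and Bub1 of this list and not for its other genes. Of all genes tested, 62.2% did not overlap. The mean of each of the 10 markers was lower after 5-AZA, with a median log2 fold change of -0.28. Their summed level was 231 to 287 FPKM in the untreated samples and 215 to 219 FPKM after 5-AZA, and the part of proliferation in the values of Rrm1 and Rrm2 was not tested.

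Samhd1 encodes the triphosphohydrolase that cleaves deoxynucleotide triphosphates. It was at 6.27 and 5.00 FPKM in the untreated samples and at 10.5 and 11.6 FPKM after 5-AZA, with no overlap. The mean rose from 5.63 ± 0.90 to 11.0 ± 0.820 FPKM (SD, n = 2), 1.96 times the untreated level, with a log2 fold change of 0.97 (95% interval 0.61 to 1.33, adjusted p = 0.00224, limma). Without 5-AZA replicate 101 the change was 1.04 with an adjusted p-value of 0.119, and without replicate 102 it was 0.89 with 0.141, while without untreated replicate 1 the change was 1.13 and passed the limit of 2-fold as well. Samhd1 was 0.288 and 0.272 times the level of Rrm1 in the untreated samples and 0.542 and 0.576 times after 5-AZA.

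**Figure D3:**
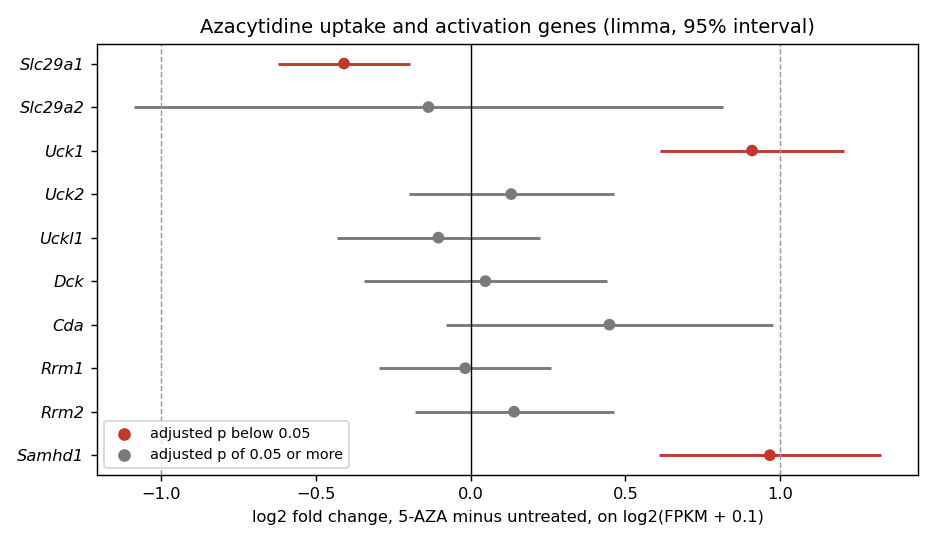
Log2 fold change of each gene (5-AZA minus untreated, limma on log2(FPKM + 0.1)) with its 95% interval, red where the adjusted p-value was below 0.05. Dashed lines mark 2-fold, and the points of Uck1 (0.91) and Samhd1 (0.97) lie just inside that line.

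Of the 7 genes that did not pass, 6 had a 95% interval that stayed within 2-fold in both directions, and Slc29a2 did not. A p-value above the threshold does not show that these genes were unchanged. The groups did not overlap in 3 of the 10 genes, against 62.2% of all genes tested.

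Other gene programs differed between the same samples, and their part in the rise of Uck1 and Samhd1 and the fall of Slc29a1 was not tested. All 6 interferon response genes that were tested rose, with a summed level over the 7 listed of 22.0 to 27.6 FPKM in the untreated samples and 245 to 270 FPKM after 5-AZA. All 7 skeletal muscle markers rose, from a sum of 0.986 to 1.39 FPKM to one of 694 to 1078 FPKM, and all 5 adipocyte markers rose, from 14.3 to 32.3 FPKM to 1097 to 1497 FPKM. Of the 7 mesenchymal markers 4 fell and 2 rose. Their sum was 8234 to 8273 FPKM before and 4638 to 4795 FPKM after, and most of it was S100a4 and Vim. The mean of S100a4 went from 5014 to 2556 FPKM and that of Vim from 2337 to 1279 FPKM. Ly6a and Thy1 rose, and Pdgfrb had a higher mean but did not pass, so the sum does not describe each marker. Thy1 was among those that rose, at 0.578 and 0.785 FPKM in the untreated samples, so this marker was nearly absent before treatment. Of the 5 immune markers, 2 were tested, of which 1 rose (Cd68, log2 fold change 1.09, adjusted p = 0.0191, limma), and 2 were listed at 0 in all samples (Adgre1 and Cd3e). The other tested marker, Lyz2, did not pass and overlapped between the groups (log2 fold change -0.22, adjusted p = 0.707, limma). The sum of the list was 2.12 to 3.17 FPKM in the untreated samples and 3.13 to 5.14 FPKM after 5-AZA.

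By transcript, 28 of the 40 passed the limit on low values (5 of the 11 for Uckl1 and none of the 5 for Slc29a2), and limma gave 0 of the 28 an adjusted p-value below 0.05, against 2.62% of all 35557 transcripts tested. An unadjusted p-value below 0.05 was found for 4 of the 28, against 16.0%. Transcripts of a gene share exons, and the division of reads among them was made by the authors' quantification, so a single transcript is less certain than the sum of its gene.

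Uck1 was carried by its curated transcript NM_011675.2, at 7.46 and 6.61 FPKM in the untreated samples and 12.7 and 13.3 FPKM after 5-AZA (log2 fold change 0.88, adjusted p = 0.0610, limma). The predicted transcript XM_006497853.1 stayed at 0.680 FPKM or below. Samhd1 had 2 curated transcripts, each higher in both 5-AZA samples than in both untreated samples. NM_018851.3 was at 4.52 and 2.99 FPKM and at 6.54 and 7.84 FPKM, and NM_001139520.1 at 1.22 and 1.62 FPKM and at 3.25 and 2.94 FPKM (adjusted p = 0.177 for both, limma). NM_018851.3 made up 59.8% to 72.1% of Samhd1 in the 4 samples, so the same transcript led in every one.

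Slc29a1 was spread over 11 transcripts, 5 of them curated. NM_001199116.1 was the highest in each sample, at 48.5 and 46.4 FPKM in the untreated samples and 29.4 and 40.2 FPKM after 5-AZA, or 31.9% to 41.0% of the gene. NM_001199114.1 was at 14.3, 19.7 and 11.1 FPKM in the untreated samples and 5-AZA replicate 101, but at 0.734 FPKM in 5-AZA replicate 102. The same replicate was lowest for NM_001199115.1, at 0.0441 FPKM beside 1.25 to 1.94 FPKM in the other 3 samples, and for XM_006524770.3, at 0.0255 FPKM beside 0.416 to 0.802 FPKM. These values of single transcripts differed more between the treated samples than the sum of Slc29a1 did, which was 92.1 and 98.1 FPKM. The curated transcripts, NM_001199114.1 among them, summed to 79.9 and 81.7 FPKM in the untreated samples. After 5-AZA they summed to 59.1 and 54.5 FPKM, without overlap. The predicted transcripts summed to 49.3 and 41.7 FPKM and to 33.1 and 43.6 FPKM, with overlap.

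**Figure D4:**
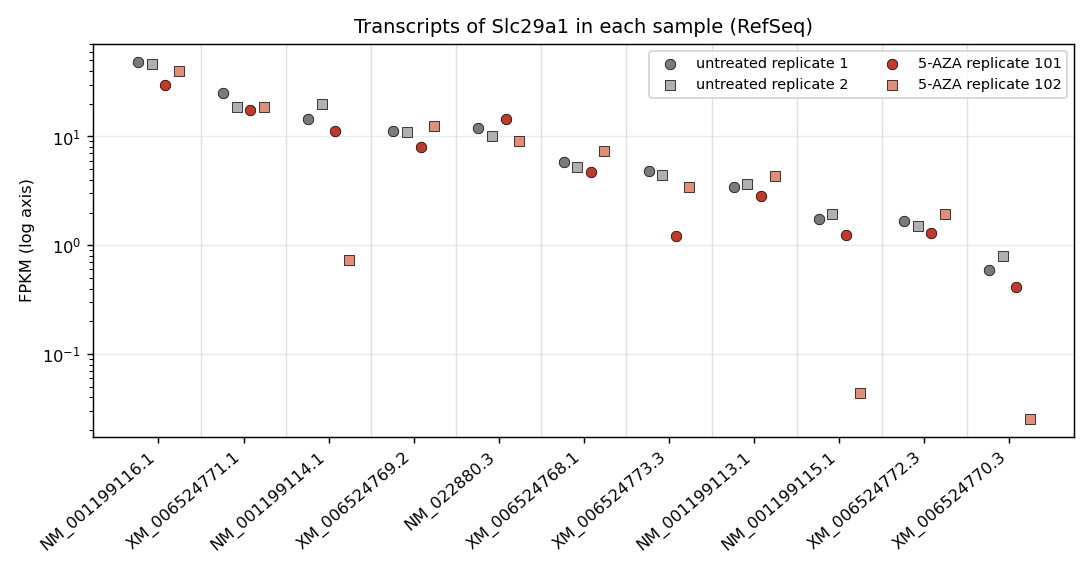
FPKM of the 11 RefSeq transcripts of Slc29a1 (log axis) in each of the 4 samples, ordered by their untreated mean. 5-AZA replicate 102 lies far below the other samples for NM_001199114.1, NM_001199115.1 and XM_006524770.3.

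Uck2 was led by the predicted transcript XM_006497040.3, at 57.1% to 65.4% of the gene. Its lesser transcript XM_017312968.1 was at 0.773 and 0.488 FPKM in the untreated samples and 1.30 and 1.35 FPKM after 5-AZA, without overlap but short of the threshold (adjusted p = 0.377, limma). Of Uckl1, 10 of the 11 transcripts were predicted, and the curated NM_026765.3 ranged from 6.95 to 9.97 FPKM.

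Back-spliced junction reads were listed for 3 circRNAs of 2 of the 10 genes, out of 4295 circRNAs. The values are RPM (junction reads relative to all reads of the library), and the number of reads was worked out from the RPM of 1 read, which left every value whole to within 0.01. A circRNA of Uck2, circRNA_0225 (mmu_circ_0000115, 400 bases), was at 0.129 and 0.128 RPM in the untreated samples, 0.151 RPM in 5-AZA replicate 101 and 0.0319 RPM in 5-AZA replicate 102. These equal 12, 12, 14 and 3 reads. The exact Poisson 95% interval was 0.619 to 8.77 for the 3 reads and 7.65 to 23.5 for the 14 reads. These intervals cover counting error only, and the difference between the treated samples was not tested. The groups overlapped. The 2 circRNAs of Samhd1 were each listed with 3 reads in 1 sample, circRNA_2589 in untreated replicate 1 and circRNA_2590 in 5-AZA replicate 101. They were listed at 0 in the other samples, where fewer than 2 reads are not listed.

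A wider list of 38 genes of nucleoside transport and of pyrimidine and deoxynucleotide metabolism was described beside the set. Of these, 33 were tested, 3 rose and 2 fell, and 28 did not pass, so 5 of 33 passed against 24.5% of all genes. The median log2 fold change was 0.049, beside 0.047 for all genes tested. The genes of this list that passed with less than 2-fold were not followed under other settings of the fit.

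Slc28a2, a sodium-coupled concentrative nucleoside transporter, was the only one past 2-fold, at a very low level. It was listed at 0 and at 0.0143 FPKM in the untreated samples and at 0.133 and 0.420 FPKM after 5-AZA (log2 fold change 1.70, adjusted p = 0.0343, limma), and the higher group stayed below 1 FPKM. Several alternatives lost this call, among them a pseudocount of 1 FPKM and the omission of untreated replicate 1, untreated replicate 2 or 5-AZA replicate 102. The other concentrative transporters, Slc28a1 and Slc28a3, were at 0.00600 FPKM or below in every sample.

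Abcg2, an efflux pump, rose from 15.3 and 14.2 FPKM to 21.7 and 21.0 FPKM (log2 fold change 0.53, adjusted p = 0.00826, limma). Nme4, a mitochondrial nucleoside diphosphate kinase, rose from 3.77 and 3.37 FPKM to 4.82 and 6.70 FPKM (log2 fold change 0.66, adjusted p = 0.0413, limma). The main cytosolic enzymes for the steps to the di- and triphosphate did not pass. Cmpk1 was at 43.3 to 48.3 FPKM over the 4 samples, with overlap. Nme2 was at 446 and 439 FPKM in the untreated samples and lower, at 331 and 401 FPKM, after 5-AZA (log2 fold change -0.28, adjusted p = 0.124, limma).

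Tk1, the thymidine kinase of dividing cells, fell from 26.2 and 22.7 FPKM to 19.1 and 16.8 FPKM (log2 fold change -0.45, adjusted p = 0.0303, limma). Adk, adenosine kinase, fell from 63.4 and 60.3 FPKM to 50.3 and 49.1 FPKM (log2 fold change -0.32, adjusted p = 0.0405, limma). Rrm2b, the reductase subunit used outside S phase, was at 7.79 and 9.22 FPKM and at 6.27 and 8.82 FPKM, with overlap (adjusted p = 0.527, limma).

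**Figure D5:**
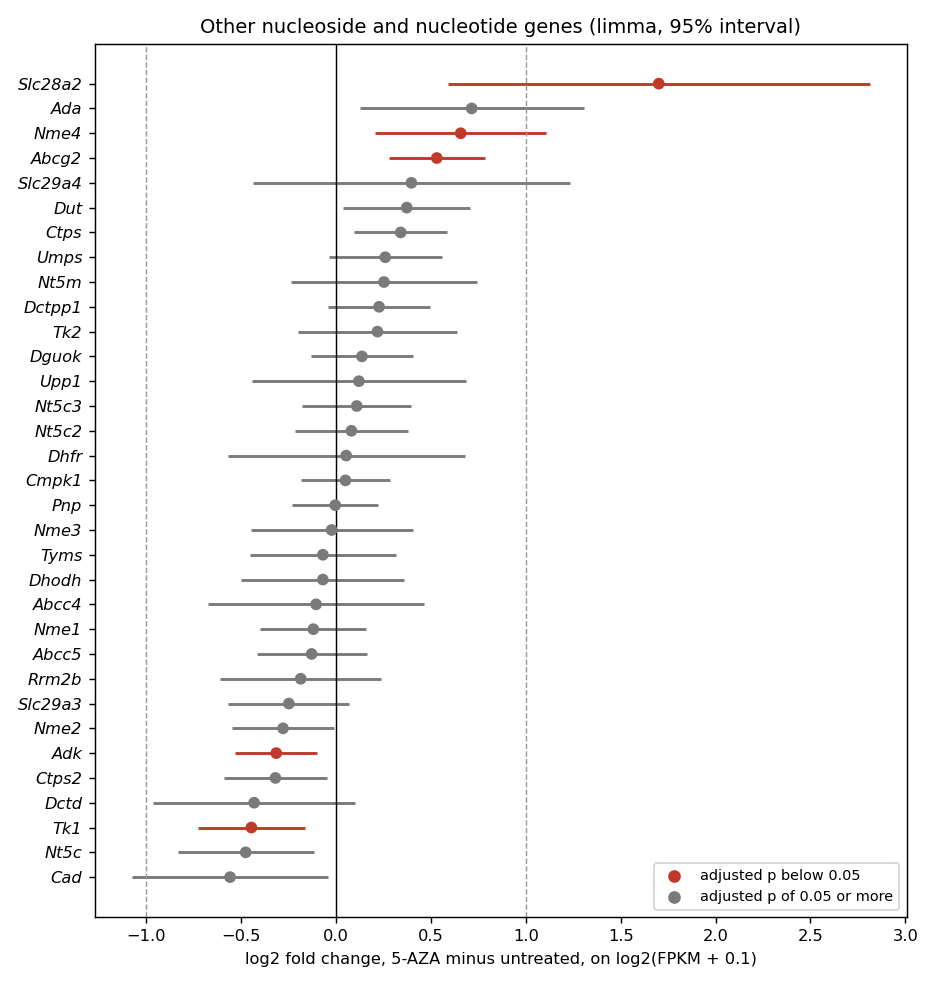
Log2 fold change of the 33 tested genes of the wider nucleoside and nucleotide list (5-AZA minus untreated, limma on log2(FPKM + 0.1)) with 95% intervals, red where the adjusted p-value was below 0.05. Slc28a2 (1.70) lies beyond the dashed line of 2-fold, and the other 32 points lie within it.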

How the data were processed

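Stranded libraries were made after removal of ribosomal RNA from 2 untreated and 2 5-AZA samples of C3H10T1/2. The authors trimmed the reads with Trimmomatic and deposited FPKM values per RefSeq transcript and RPM values per circRNA. The submitters' processing notes name HISAT2, Bowtie2 2.2.9, eXpress 1.5.1 and the build mm9, with no role for each, so no coordinates of the deposited circRNAs are given. Promoter windows are RefSeq sequences of GRCm38.p6. The lncRNA values were not used.

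Transcripts were summed per gene (summed FPKM of 328410 to 361664 and 10298 to 11124 genes at 1 FPKM or more per sample). The depth behind an FPKM value is unknown, while the RPM steps correspond to 92903364 to 93920706 reads per sample. limma 3.58.1 (lmFit, eBayes with trend, R 4.3.3, with version 1.17.8 of the package data.table) was fitted to log2(FPKM + 0.1) of genes with a mean of at least 0.1 FPKM. A call needed an adjusted p-value below 0.05 and, where stated, a change over 2-fold. Reporting without the limit on fold change was chosen after seeing the data. With 2 samples against 2, no exact permutation test goes below 0.333. The fit was also run on 10 simulated draws with 200 changed genes, as many higher as lower, among a median of 12999 tested. It recovered 74.3% of 2-fold and 93.7% of 4-fold changes, and 5.28% of its calls were false. The simulated spread was smoothed over genes of similar level, and a far smaller share was changed than the 24.5% that passed here. These rates therefore describe that setting and not the calls reported here.

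The 10 genes and the gene lists were chosen with earlier results of these data known. All 10 genes are named. Of the wider list, the rule named each gene that passed with more than 2-fold (Slc28a2). The genes that passed with less, Cmpk1, Nme2, Rrm2b and the other concentrative transporters, and single marker genes were chosen after their values were seen. No gene of the set passed with more than 2-fold, so none was named by likeness of pattern. Protein sequences were not compared. Alternatives were other pseudocounts and limits on low values, median centring, quantile normalization, eBayes without trend and the omission of each sample.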

Additional observations from a re-analysis of the deposited data

How the results depend on the processing

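No paired analysis was possible because the untreated and the 5-AZA samples share no replicate numbers. Over 11 alternatives each, Uck1 stayed higher with log2 fold changes from 0.80 to 0.98 (9 below an adjusted p of 0.05), Samhd1 from 0.81 to 1.13 (8) and Slc29a1 stayed lower, from -0.52 to -0.36 (5). Without the limit on low values the adjusted p of Samhd1 was 0.0646 and that of Slc29a1 0.0525, and with eBayes without trend that of Slc29a1 was 0.0957. The direction of genes near 0 turned. Dck was at -0.059 after median centring and -0.085 after quantile normalization. With 1 sample left out, where the lone sample of a group is assumed to vary like the other group, Slc29a2 ran from -0.51 to 0.23, Uck2 from -0.038 to 0.30, Uckl1 from -0.25 to 0.046, Dck from -0.10 to 0.20, Rrm1 from -0.14 to 0.10 and Rrm2 from -0.037 to 0.32. Median centring and quantile normalization moved the median log2 fold change of all genes by -0.11 and -0.17. The count of the 10 genes past 2-fold was 0, and 1 after quantile normalization (Slc29a2, lower, at -1.36 with an adjusted p of 0.0332), 0 to 1 with each sample left out (Samhd1 without untreated replicate 1) and 3 with no limit on the fold change. Of the wider list 1 gene was past 2-fold, 0 with a pseudocount of 1 FPKM, without the limit on low values, with a limit of 1 FPKM, after quantile normalization and with eBayes without trend, 0 to 1 with each sample left out, and 5 with no limit on the fold change. Of all genes 1898 were past 2-fold, 961 with a pseudocount of 1 FPKM, 1262 without the limit on low values, 967 with a limit of 1 FPKM, 803 to 1801 with each sample left out (977 without 5-AZA replicate 101 and 803 without 102) and 3232 with no limit on the fold change. Of these 1898, 1724 were higher, and after quantile normalization 1041 of 1927 were. The causes were not tested. The count of transcripts of the 10 genes stayed at 0 under each alternative run.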
